A study of Mus musculus with 78 samples.

Results

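The dystrophin complex is represented here by 8 genes taken by mouse symbol from the 36904 gene IDs of the count table: Dmd (dystrophin), Utrn (utrophin), Dag1 (dystroglycan), Sgca, Sgcb and Sgcd (alpha-, beta- and delta-sarcoglycan), Sspn (sarcospan) and Dtna (alpha-dystrobrevin). No measured value was used to choose them. All 8 were among the 18218 genes that passed a filter on low counts. The syntrophins, the other sarcoglycans and further partners are described after these 8 as a list of 12 genes.

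The complex spans the plasma membrane of the muscle fibre. Dystrophin, under the membrane, binds actin at one end and dystroglycan at the other, dystroglycan holds laminin outside the fibre, and the sarcoglycans and sarcospan form a subcomplex that stabilises this link. Loss of dystrophin or of a sarcoglycan causes muscular dystrophy, and utrophin, a close relative of dystrophin that is found at the neuromuscular junction and in regenerating fibres, can take over part of its role.

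RNA of the soleus, a slow postural muscle of the calf, was sequenced in bulk from C57Bl/6 mice without any genetic change. Batch 1 held control-fed mice labelled F and M, read here as female and male (the oldest age, 28 months, is read from the titles, and the design text gives no age at the end): 4 females and 6 males of 6 months, 6 and 6 of 12 months, 6 and 9 of 20 months, and 6 and 5 of 28 months. Batch 2 held 28-month mice: 7 females and 10 males on control feed, and 12 males whose feed contained 2% calcium alpha-ketoglutarate (CaAKG), the calcium salt of a metabolite of the citric acid cycle. Invivos supplied the mice of 6 and 12 months and Jackson those of 20 months, so age and source cannot be told apart in the comparison of 20 with 6 months. A separate group arrived at 17 months and was randomised after 3 months to control feed or a compound, and no source used here states which labelled batch that group is. In bulk RNA, fewer cells of a type and less RNA per cell cannot be told apart.

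The 77 replicates held 19.5 to 112 M counts (M, mega; median 35.2 M), the highest being a sum of 2 libraries, of which 10.1% to 46.5% lay on the mitochondrial genome. The summed level of 12 myofibre markers was 37140 to 132400 CPM over all groups (CPM, counts scaled to the library total), and all 12 passed the filter. In 5 libraries, all of 6 or 12 months, X- and Y-linked transcripts went against the sex label, and 9 libraries held skin or marrow transcripts above 100 CPM, 3 of them among the 6 females of 28 months in batch 1. All stayed in their labelled groups, and the main changes without them are given beside the results. The labels do not state that each library came from a separate mouse, so p-values measure the spread between these libraries, which may be technical.

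Dmd (ENSMUSG00000045103) lies on chromosome X at 82948870 to 85206141 on the plus strand, and Utrn (ENSMUSG00000019820) on chromosome 10 at 12382188 to 12869365 on the minus strand, both in mm10 with GENCODE M21 annotation. Dag1 (ENSMUSG00000039952) lies on chromosome 9 at 108204634 to 108263958, minus strand. Sgca (ENSMUSG00000001508) is on chromosome 11 at 94962791 to 94976327, Sgcd (ENSMUSG00000020354) on the same chromosome at 46896253 to 47988969, and Sgcb (ENSMUSG00000029156) on chromosome 5 at 73632749 to 73647790, each on the minus strand. Sspn (ENSMUSG00000030255) is on chromosome 6 at 145931641 to 145965223 on the plus strand, and Dtna has the identifier ENSMUSG00000024302. Their longest annotated transcripts differ widely, from 14.9 kb for Dmd and 12.4 kb for Utrn to 1.72 kb for Sgca.

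The 250 bases upstream of the annotated start (RefSeq, build GRCm38.p6) are shown for 2 genes whose RNA was higher at 20 months, Dmd and Dag1, and for 2 whose RNA did not pass the test at that age, Sgca and Sgcb. They are printed 5′ to 3′ on the gene's strand, with matches to the E-box, the CArG box and the MEF2 site in capitals. The windows are chrX:82948620-82948869 (plus) for Dmd, chr9:108263959-108264208 (minus) for Dag1, chr11:94976328-94976577 (minus) for Sgca and chr5:73647738-73647987 (minus) for Sgcb.
Dmd: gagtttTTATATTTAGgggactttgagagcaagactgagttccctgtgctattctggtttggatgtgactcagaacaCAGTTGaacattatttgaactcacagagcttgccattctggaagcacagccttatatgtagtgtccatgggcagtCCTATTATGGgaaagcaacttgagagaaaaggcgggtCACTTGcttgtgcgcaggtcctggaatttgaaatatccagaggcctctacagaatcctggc
Dag1: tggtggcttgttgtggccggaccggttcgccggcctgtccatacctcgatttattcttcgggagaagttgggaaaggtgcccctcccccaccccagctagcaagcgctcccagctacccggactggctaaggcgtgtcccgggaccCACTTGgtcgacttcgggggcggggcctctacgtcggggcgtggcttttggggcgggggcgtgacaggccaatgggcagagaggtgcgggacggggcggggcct
Sgca: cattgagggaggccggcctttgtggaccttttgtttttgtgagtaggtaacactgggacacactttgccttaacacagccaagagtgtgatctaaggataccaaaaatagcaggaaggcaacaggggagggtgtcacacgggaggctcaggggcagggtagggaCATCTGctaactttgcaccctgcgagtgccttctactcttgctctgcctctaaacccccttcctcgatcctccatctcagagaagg
Sgcb: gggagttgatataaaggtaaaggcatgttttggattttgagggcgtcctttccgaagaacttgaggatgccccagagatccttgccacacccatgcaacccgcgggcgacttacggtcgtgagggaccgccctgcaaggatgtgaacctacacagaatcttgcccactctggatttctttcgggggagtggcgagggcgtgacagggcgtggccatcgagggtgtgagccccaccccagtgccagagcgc
Motifs were searched on both strands: the E-box, CANNTG, which MyoD-family factors bind, the N-box with the letters CCGGAA, the GC box with the letters GGGCGG, the MCAT element with the letters CATTCC, and the CArG box and MEF2 site by name. The Dmd window holds a CArG box that begins 98 bases before the start (position -98), a MEF2 site at -244 and E-boxes at -173 and -61. A CArG box occurs in 1.47% and a MEF2 site in 2.92% of the 32851 promoter windows of this length, and an E-box in 66.2%. Dag1 holds an E-box at -104 and 3 GC boxes at -87, -54 and -11, which are not capitalised. At least 1 GC box occurs in 32.7% of windows. Sgca holds 1 E-box, at -86, and Sgcb holds a GC box at -124 and no E-box. None of the 4 windows matches the N-box, found in 12.0% of all windows. The RefSeq starts of Utrn and Sgcd lie inside the GENCODE gene and their windows are not shown. That of Sgcb, at 73647737, also lies inside its gene, which ends at 73647790, so its window covers part of the gene. Dmd and Dag1 each have a second RefSeq start whose window is not shown. The second Dmd window holds 3 GC boxes and no E-box, CArG box or MEF2 site. The matches are a description of the letters and were not related to the levels by any test.

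Per kb of the longest transcript, Sgca was the most abundant of the 8 RNAs, with a median of 70.7 CPM per kb over the 77 replicates. Dag1 followed at 41.8, Sgcb at 29.7, Sspn at 26.9 and Dtna at 12.7 CPM per kb. Dmd stood at 9.06, Sgcd at 3.97 and Utrn at 3.17 CPM per kb. Counts of a gene with many start sites, such as Dmd, pool full-length and short transcripts.

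**Figure D1:**
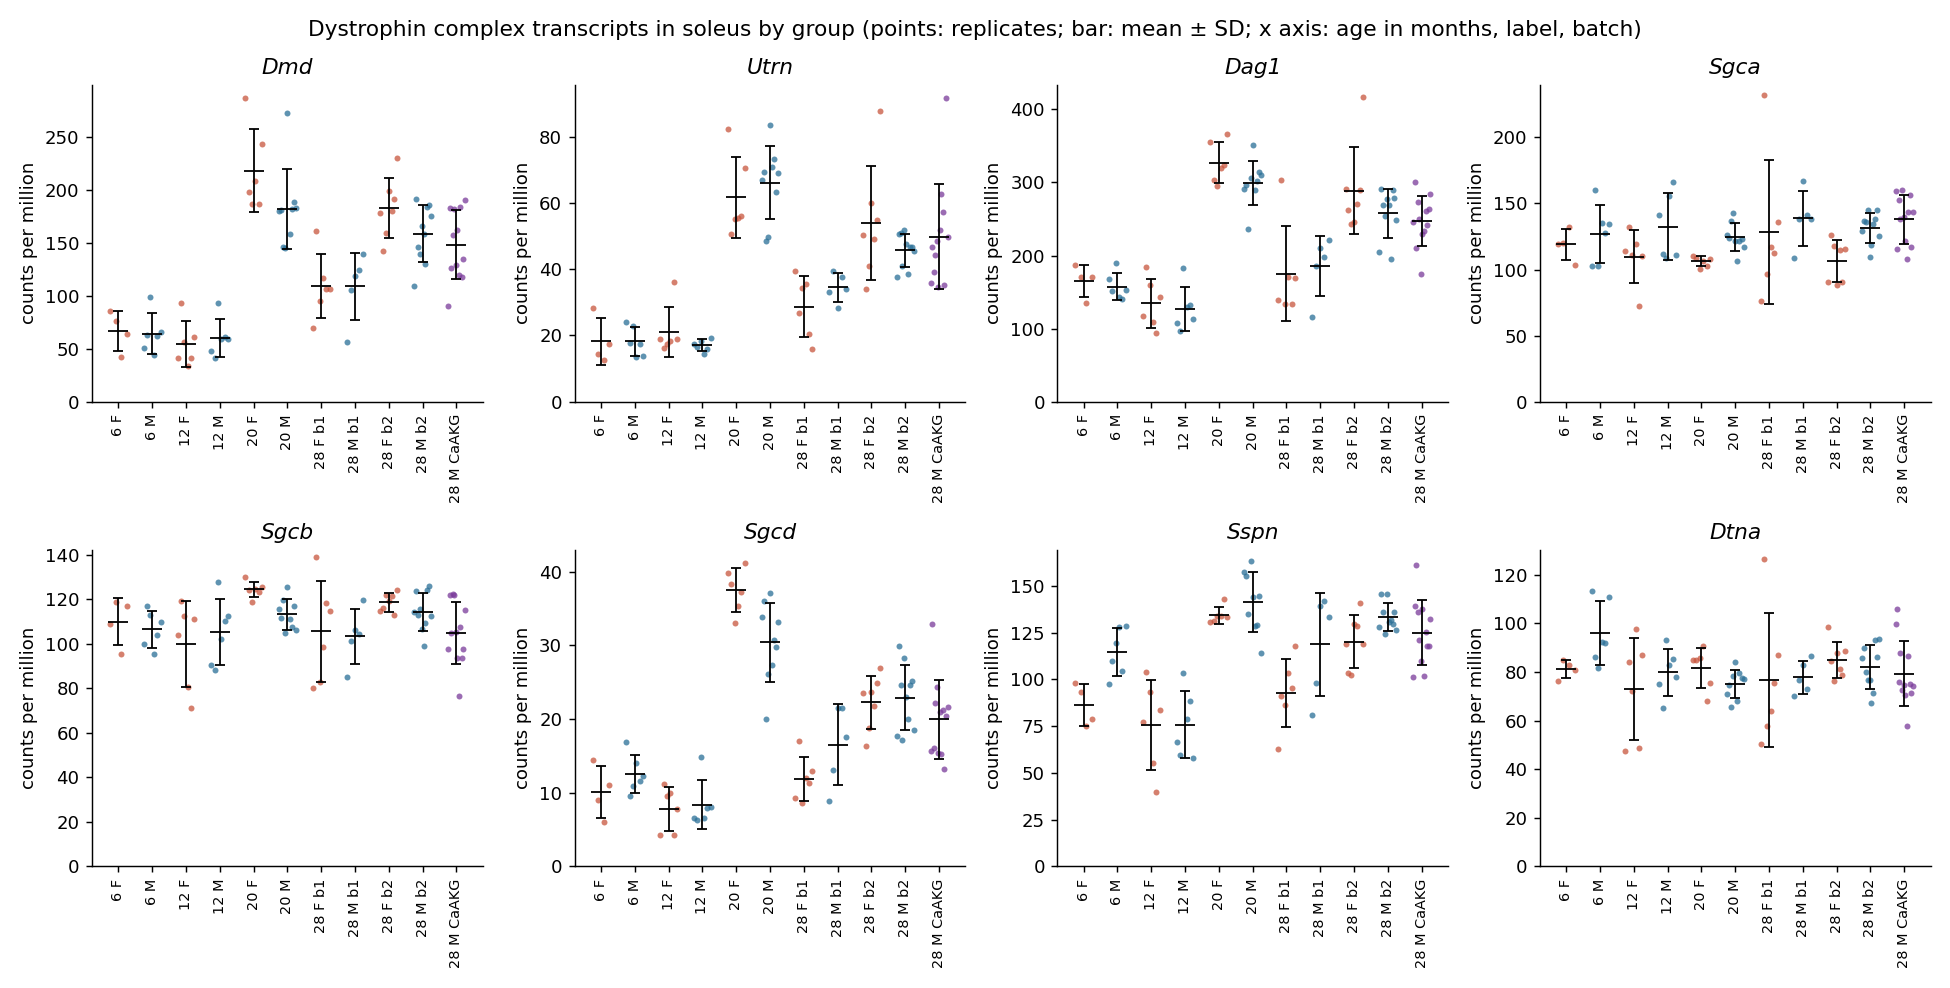
CPM of the 8 genes (y axis) in each of the 11 groups (x axis: age in months, F or M label, b1 and b2 for the batches), with 1 point per replicate and bars for mean ± SD. Dmd, Utrn, Dag1 and Sgcd are low at 6 and 12 months, highest at 20 months and between these at 28 months, whereas Sgca, Sgcb and Dtna differ less between groups.

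At 20 months the RNA of dystrophin, utrophin, dystroglycan and delta-sarcoglycan was about 2 to 4 times as abundant as at 6 months in both sexes. In females 5 of the 8 genes rose and 0 fell, against 18.2% of all genes tested that rose, 17.8% that fell and 36.0% that changed either way. In males 5 rose and 1 fell, where 22.6% of all genes rose, 22% fell and 44.6% changed. The median log2 fold change of the 8 genes was 0.81 in females and 0.62 in males, beside a median over all genes of 0.00 and 0.02.

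Dmd, the gene of dystrophin, was at 85.3, 75.8, 42.1 and 63.7 CPM in 6-month females 1 to 4, and at 187 to 287 CPM (median 203) in the 6 females of 20 months. In males it was at 43.9 to 99.3 CPM (median 62.8, n = 6) at 6 months and at 145 to 273 CPM (median 181, n = 9) at 20 months. Every 20-month library lay above every 6-month library of its sex. The means were 66.7 ± 18.6 and 218 ± 39.5 CPM in females (SD, n = 4 and 6), a 3.27-fold rise (log2 1.71, SE 0.24, edgeR adjusted p = 3.1e-08). In males they were 64.2 ± 19.2 and 182 ± 38.0 CPM (SD, n = 6 and 9), a 2.83-fold rise (log2 1.503, SE 0.19, edgeR adjusted p = 1e-09).

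Utrn, the gene of utrophin, was at 28.3, 14.3, 12.5 and 17.5 CPM in the 6-month females and at 50.6 to 82.3 CPM (median 55.8) in the 20-month females. In males it was at 13.5 to 24.0 CPM (median 17.5) at 6 months and at 48.5 to 83.5 CPM (median 69.0) at 20 months. The ranges lay well apart in both sexes. Utrn rose 3.40-fold in females (log2 1.77, SE 0.24, edgeR adjusted p = 1.3e-08) and 3.63-fold in males (log2 1.86, SE 0.19, edgeR adjusted p = 2.3e-12). The ratio of Utrn to Dmd, both per kb, had medians of 0.345 and 0.348 in females of 6 and 20 months and of 0.336 and 0.447 in males. The ranges overlapped in both sexes, and a change of the ratio was not tested.

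Dag1 encodes both dystroglycan subunits, the outer one that holds laminin and the one in the membrane that binds dystrophin. It was at 187, 170.0, 135 and 170.0 CPM in the 6-month females and at 295 to 366 CPM (median 322) at 20 months, and in males at 140 to 189 CPM (median 152) and 237 to 351 CPM (median 302). The ages did not overlap in either sex. It rose 1.98-fold in females (log2 0.98, SE 0.17, edgeR adjusted p = 4e-06) and 1.91-fold in males (log2 0.93, SE 0.14, edgeR adjusted p = 7.7e-08).

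The 3 sarcoglycan genes did not move alike. Sgcd was at 14.4, 8.94, 5.995 and 11.1 CPM in the 6-month females and at 33.0 to 41.1 CPM (median 37.8) at 20 months, with 9.54 to 16.8 CPM (median 11.9) and 20.0 to 37.1 CPM (median 30.7) in males. No library of one age reached the range of the other. Sgcd rose 3.72-fold in females (log2 1.90, SE 0.25, edgeR adjusted p = 1e-08) and 2.43-fold in males (log2 1.28, SE 0.20, edgeR adjusted p = 1.3e-07). Sgca, which is nearly restricted to striated muscle, was at 104 to 133 CPM in 6-month and 101 to 110.4 CPM in 20-month females, a log2 change of -0.16 (SE 0.16, edgeR adjusted p = 0.46). In males its log2 change was -0.03, with a 95% interval of -0.28 to 0.22. Sgcb was at a log2 change of 0.18 in females (95% interval -0.04 to 0.40) and 0.09 in males (-0.09 to 0.27), and neither passed the test. Its 20-month female libraries, at 118.8 to 130 CPM, lay just above those of 6 months, at 95.4 to 118.7 CPM.

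Sspn, the tetraspanin-like member that sits with the sarcoglycans, rose 1.56-fold in females, from 98.0, 93.2, 74.9 and 78.9 CPM to 131 to 143 CPM (median 133; log2 0.64, SE 0.16, edgeR adjusted p = 0.00068). The female ranges did not overlap. In males it went from 97.3 to 128 CPM (median 115) to 114 to 163 CPM (median 144), with overlap, and the rise of 0.30 on the log2 scale (SE 0.13, edgeR adjusted p = 0.047) was lost when any one of 11 of the 15 libraries was left out, and stood at 0.29 (edgeR adjusted p = 0.078) without the sex-mismatched libraries. Dtna, whose protein binds dystrophin and the syntrophins, fell in males from 81.5 to 113.5 CPM (median 92.0) to 65.4 to 84.0 CPM (median 77.1), with overlap (log2 -0.35, SE 0.12, edgeR adjusted p = 0.014), and without male 6 of 6 months it stood at -0.30 (edgeR adjusted p = 0.05). In females its log2 change was 0.01 (SE 0.15). The difference between the sexes in the change from 6 to 20 months passed the test for 0 of the 8 genes and for 0 of all genes (0.0%), and for 0 of the 8 by DESeq2 or limma-voom, with 1 of the 8 under an unadjusted p of 0.05. That gene was Sgcd, at -0.61 (male minus female, SE 0.30, unadjusted p = 0.048, edgeR adjusted p = 1).

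**Figure D2:**
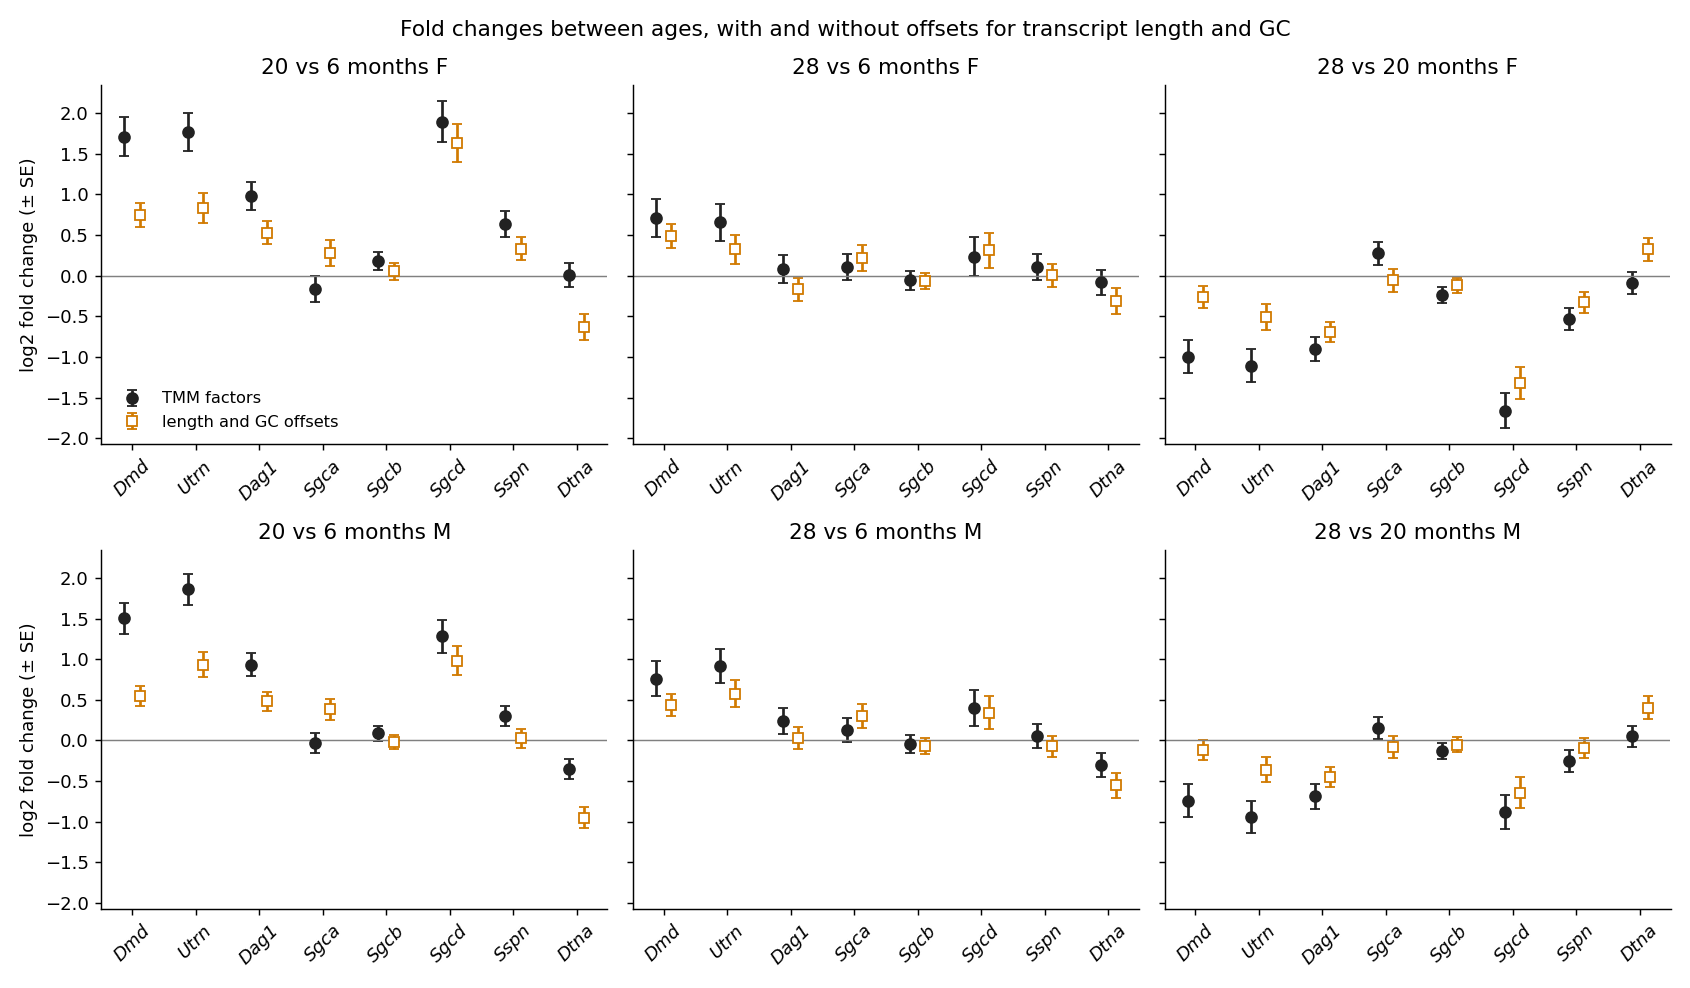
Log2 fold changes ± SE (y axis) of the 8 genes (x axis) between ages in batch 1, for females above and males below. Black circles use TMM factors and open squares add offsets for transcript length and GC: Dmd and Utrn move closer to 0 with the offsets at 20 against 6 months, Sgcd changes least among the 4 that rose most, and Dtna moves below 0.

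Long transcripts as a whole were higher at 20 months, and this is the background for the 2 longest RNAs of the complex. Among the 386 genes whose longest transcript has 10 kb or more (10000 bases), the median log2 change from 6 to 20 months was 1.08 in females and 1.07 in males, and 67.9% and 71.5% of them rose. Among the 4779 genes under 2000 bases the medians were -0.57 and -0.52. Dmd and Utrn lay above the median of their own length class in both sexes, and Dtna, with 6.29 kb, lay below the class of 5000 to 10000 bases, whose medians were 0.69 and 0.67. Dag1, Sgca, Sgcb, Sgcd and Sspn also lay above the median of their class in both sexes. Sgca, in the class under 2000 bases, stood at -0.16 in females and -0.03 in males.

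With offsets that remove the trend on transcript length and GC in each library, Dmd still rose, by 0.75 on the log2 scale in females and 0.55 in males (edgeR adjusted p = 1e-04 and 0.00021), and Utrn by 0.83 and 0.93 (edgeR adjusted p = 0.00038 and 7.6e-07). Dag1 rose by 0.53 and 0.48, and Sgcd by 1.63 and 0.98, all past the threshold. Sspn no longer passed in either sex, at 0.33 and 0.02. Dtna fell in both sexes, to -0.64 and -0.95 (edgeR adjusted p = 0.0018 and 1.3e-08), and Sgca changed sign to a rise of 0.38 in males (edgeR adjusted p = 0.018). The rise of Dmd, Utrn, Dag1 and Sgcd was therefore past the threshold on both scales, with smaller changes on the second.

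**Figure D3:**
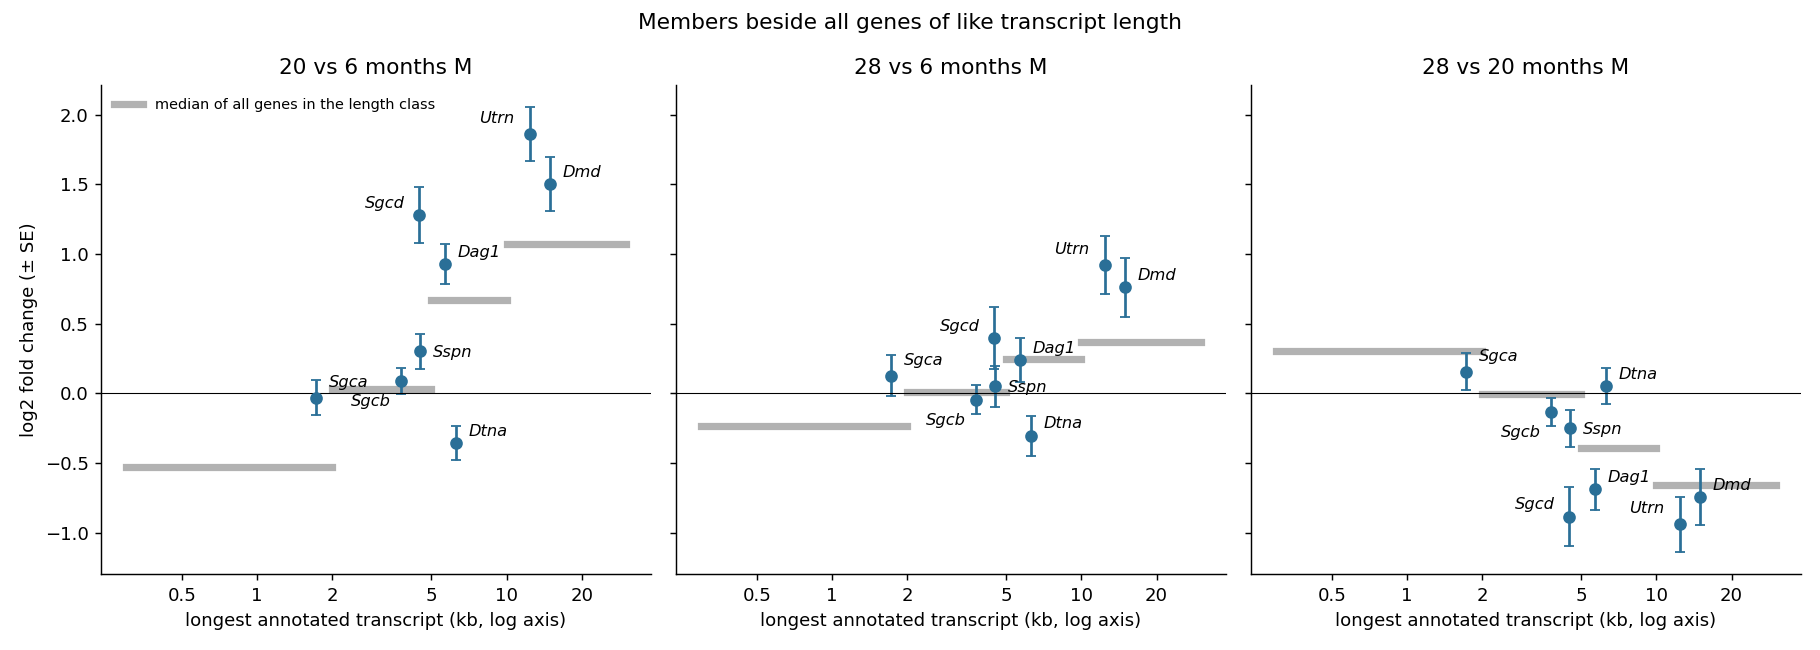
Log2 fold change ± SE (y axis) of the 8 genes in males against the length of their longest transcript in kb (log x axis), with grey bars for the median of all genes in 4 length classes. At 20 against 6 months the grey bars climb from -0.52 to 1.07. Utrn, Dmd, Dag1, Sgcd, Sspn, Sgcb and Sgca lie above the bar of their class, Sgca at -0.03, while Dtna lies below.

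Markers of blood vessels were also higher at 20 months, and utrophin is known to be made in endothelium as well as in fibres. Of 12 endothelial markers 11 rose in each sex and 1 fell in females. Their summed level was 172 to 416 CPM in females and 127 to 256 CPM in males at 6 months, and 621 to 818 and 636 to 864 CPM at 20 months. Of 12 smooth muscle and pericyte markers, cells in which Sgcd and Sgcb are also made, 8 rose in females and 10 in males, with sums of 359 to 623 and 346 to 458 CPM at 6 months and 1015 to 1187 and 1008 to 1310 CPM at 20 months. Among the 12 myofibre markers the test called 4 higher and 4 lower at 20 months in females, and 4 higher and 5 lower in males, while their sums overlapped between the ages. Of 10 adipocyte markers 1 rose in females and 7 in males, and of 8 tendon markers 2 and 5 rose and 1 fell in each sex. Of 10 fibroblast markers 1 rose in females, and 4 rose and 1 fell in males, and of 10 macrophage markers 2 rose in females, and 4 rose and 2 fell in males. Of 10 neutrophil and marrow markers 6 fell in males. The part of RNA from these cells in the levels of the complex was not tested.

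**Figure D4:**
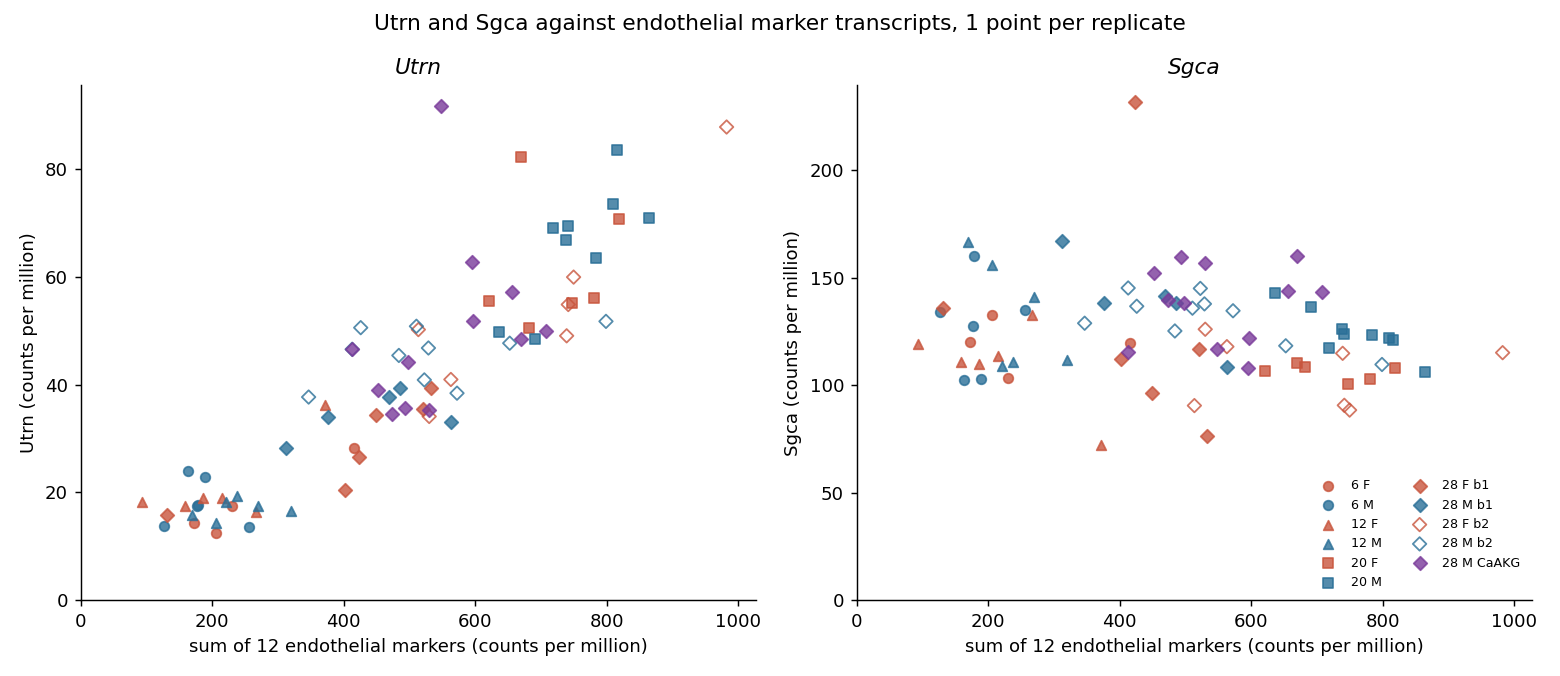
CPM of Utrn (left) and Sgca (right) against the summed CPM of 12 endothelial markers, with 1 point per replicate, symbols by age and open symbols for batch 2 on control feed. Libraries of 20 months sit high on both axes for Utrn, while Sgca shows no such arrangement by age, and the points share library and depth.

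At 28 months in batch 1, Dmd, Utrn, Dag1, Sgcd and Sspn lay closer to their 6-month levels than at 20 months. In the 28-month control mice of batch 2 the medians were higher than in batch 1 for Dmd, Utrn, Dag1 and Sgcd. Dmd was at 180.1 CPM in females and 162 CPM in males there, Utrn at 50.2 and 46.7 CPM, and Dag1 at 271 and 269 CPM. Sspn was higher in females alone, with male medians of 133.5 CPM in batch 1 and 131.3 CPM in batch 2. In batch 1, 2 of the 8 genes rose against 6 months in each sex and 0 fell, namely Dmd and Utrn, where 9.91% of all genes rose and 9.04% fell in females (18.9% either way), and 6.76% rose and 9.38% fell in males (16.1% either way). The median log2 change of the 8 was 0.11 and 0.18, beside 0.09 and 0.02 over all genes. The comparisons of 12, 20 and 28 months share the 6-month libraries.

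Dmd was at 56.6, 105.3, 118.5, 124.4 and 139.4 CPM in the 28-month males of batch 1 and at 69.4 to 162 CPM (median 106) in the 6 females. Only the lowest male overlapped the 6-month males. It rose 1.70-fold in males (log2 0.76, SE 0.21, edgeR adjusted p = 0.0084) and 1.64-fold in females (log2 0.71, SE 0.23, edgeR adjusted p = 0.023). Utrn was at 33.0, 39.4, 28.3, 37.8 and 33.9 CPM in the males, all above 6 months, and at 15.9 to 39.3 CPM (median 30.5) in the females, which overlapped. It rose 1.89-fold in males (log2 0.92, SE 0.21, edgeR adjusted p = 0.0016) and 1.58-fold in females (log2 0.66, SE 0.23, edgeR adjusted p = 0.033).

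The male rises passed when any single library was left out, whereas the female ones did not hold. Without the library labelled 6-month female 3, which goes against its sex label, Dmd stood at 0.56 (edgeR adjusted p = 0.14) and Utrn at 0.53 (edgeR adjusted p = 0.16). Dmd also missed the threshold without 28-month female 9 (0.55) or 6-month female 4 (0.69), and Utrn without 28-month females 8, 10 or 11 or 6-month females 2 or 4 (0.54 to 0.65). Without the 3 female libraries with skin or marrow transcripts and the other 6 such libraries, Utrn missed the threshold in females at 0.56 (edgeR adjusted p = 0.12) and Sgca rose by 0.49 (edgeR adjusted p = 0.028). With the length and GC offsets Dmd rose by 0.43 in males and 0.49 in females, Utrn rose by 0.57 in males and did not pass in females at 0.32, and Dtna fell by 0.55 in males. With the sex-mismatched and the skin or marrow libraries both left out, Dtna also fell in males, at -0.35 (edgeR adjusted p = 0.02). No other member passed the main test, with log2 changes from -0.08 to 0.24 in females and from -0.30 (Dtna, unadjusted p = 0.038) to 0.40 (Sgcd) in males, and the difference between the sexes passed for 0 members, with 0 under an unadjusted p of 0.05 and 0 by DESeq2 or limma-voom. Of all genes 0.329% passed that test of the difference, 0.11% higher and 0.22% lower in males. Of the endothelial markers 5 of 12 rose in females and 11 of 12 in males between 6 and 28 months, with sums of 132 to 533 and 312 to 564 CPM at 28 months. In females 10 of 10 neutrophil and marrow and 4 of 10 keratinocyte markers were also higher, and in males 7 of 12 smooth muscle and pericyte and 6 of 10 adipocyte markers. In the 28-month females the keratinocyte transcripts lay mostly in female 8, and the neutrophil and marrow transcripts mostly in females 10 and 12. The part of all these markers' cells in the change of Dmd and Utrn was not tested.

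From 20 to 28 months in batch 1, the genes that were high at 20 months fell. The 20-month libraries that showed these genes as high were also the reference for this fall. A rise followed by a fall is therefore partly built in, and the size of that part was not tested. The same holds for the partners and gene lists described below. In females 5 of 8 fell and 0 rose (12.6% of all genes fell, 17.3% rose and 29.9% changed), and in males 4 fell and 0 rose (8.78% fell, 8.25% rose and 17.0% changed). Sgcd fell from 33.0 to 41.1 CPM to 8.57 to 17.0 CPM (median 11.7) in females, with no overlap, a 3.16-fold lower level (log2 -1.66, SE 0.21, edgeR adjusted p = 5e-08). In males it was at 8.93, 13.1, 21.5, 21.5 and 17.6 CPM at 28 months, of which 2 reached into the 20-month range (log2 -0.88, SE 0.21, edgeR adjusted p = 0.0018). Dag1 was at 116, 185, 210.4, 198 and 221 CPM in these males, all below the 20-month males (log2 -0.69, SE 0.15, edgeR adjusted p = 0.00069). In females it was at 134 to 303 CPM (median 154), and 1 library, female 9, reached the 20-month range (log2 -0.90, SE 0.15, edgeR adjusted p = 9.2e-06).

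Utrn fell by 1.11 on the log2 scale in females (SE 0.20, edgeR adjusted p = 3e-05) and by 0.94 in males (SE 0.20, edgeR adjusted p = 0.0005), and no 28-month library reached a 20-month one. Dmd fell by 1.00 in females (SE 0.20, edgeR adjusted p = 0.00015) and by 0.74 in males (SE 0.20, edgeR adjusted p = 0.0058), also without overlap. Without 28-month male 11, its lowest library, the male fall was 0.58 and missed the threshold (edgeR adjusted p = 0.052). Sspn fell by 0.53 in females (SE 0.14, edgeR adjusted p = 0.0026), and with the skin or marrow libraries left out it stood at -0.33 (edgeR adjusted p = 0.12). Sgca, Sgcb and Dtna passed in neither sex, with log2 changes from -0.24 (Sgcb, females) to 0.27 (Sgca, females). With the skin or marrow libraries left out Sgca rose in females, by 0.63 (edgeR adjusted p = 0.00047). Without female 8 alone it rose by 0.37 (edgeR adjusted p = 0.032), and without female 9 Sgcb fell by 0.32 (edgeR adjusted p = 0.012).

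Genes of 10 kb or more as a class had median log2 changes of -0.64 and -0.66 over the same interval. With the length and GC offsets, Dag1 and Sgcd still fell in both sexes, at -0.69 and -1.32 in females and -0.45 and -0.64 in males, and Utrn in females only, at -0.51. Dmd no longer passed, at -0.26 in females and -0.12 in males (edgeR adjusted p = 0.17 and 0.76), nor did Utrn in males at -0.36 (edgeR adjusted p = 0.21). The endothelial markers moved the same way, with 8 of 12 lower in females and 7 of 12 in males. Smooth muscle and pericyte markers were lower too, 8 of 12 in females and 5 of 12 in males, as were 6 of 8 tendon markers in females. In females 10 of 10 keratinocyte and 10 of 10 neutrophil and marrow markers were higher at 28 months, carried by few libraries. The keratinocyte markers summed to 10990 CPM in 28-month female 8, where the group median was 11.5 CPM and the 20-month females reached 10.5 CPM. The neutrophil and marrow markers summed to 1525 CPM in female 10 and 520 CPM in female 12, where the group median was 33.2 CPM. The part of all these markers' cells in the fall was not tested.

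Between 6 and 12 months, where both ages came from the same supplier, fewer of the 8 genes passed the test. In females 0 of 8 genes passed edgeR's test, DESeq2 or limma-voom, with 0 under an unadjusted p of 0.05, and 0.231% of all genes passed, 0.0384% higher and 0.192% lower. In males Sspn fell from a mean of 115 to 75.9 CPM (log2 -0.60, SE 0.14, edgeR adjusted p = 0.003) and 0 genes rose, where 9.85% of all genes changed, 3.02% higher and 6.82% lower. The 12-month males were at 58.1 to 103 CPM (median 72.7) and overlapped the 6-month range at its lower end. Sgcd was at 9.54 to 16.8 CPM at 6 months and 6.29 to 14.9 CPM (median 7.23) at 12 months (log2 -0.58, edgeR adjusted p = 0.069). Without the library labelled 12-month male 3, which goes against its sex label and held the highest of these values, Sgcd fell by 0.82 (edgeR adjusted p = 0.0044) and Dag1 by 0.44 (edgeR adjusted p = 0.042). With the length and GC offsets Sgcd fell by 0.68 (edgeR adjusted p = 0.02). In these males 3 of 8 genes had an unadjusted p under 0.05, 2 passed by DESeq2 and 3 by limma-voom, and 4 passed with the sex-mismatched and the skin or marrow libraries both left out.

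CaAKG in the feed of 28-month males gave no called change in the complex. Dmd was at 90.8 to 190.1 CPM (median 146, n = 12) with CaAKG and 110 to 192 CPM (median 162, n = 10) on control feed, Utrn at 34.6 to 91.6 CPM (median 47.5) and 37.7 to 51.7 CPM (median 46.7), and the ranges of all 8 genes overlapped. The log2 changes lay between -0.20 (Sgcd, SE 0.15) and 0.12 (Utrn, SE 0.15), with the lowest edgeR adjusted p at 0.85. Of the 8 genes 0 had an unadjusted p under 0.05, and 0 passed by DESeq2 or limma-voom, while 0.0659% of all genes passed, all of them higher with CaAKG (0.0% lower). These were 12 genes, and 6 of the 10 neutrophil and marrow markers were among them. Skin or marrow transcripts were found in 4 of the 12 CaAKG libraries and 1 of the 10 controls. Their part in these calls was not tested. The 95% intervals reach from -0.39 to 0.20 for Dmd, -0.16 to 0.41 for Utrn, -0.28 to 0.16 for Dag1, -0.14 to 0.27 for Sgca and -0.50 to 0.10 for Sgcd. Changes of the size seen between 6 and 20 months in Dmd, Utrn, Dag1 and Sgcd lie outside these intervals, and smaller ones lie within them. The intervals are not adjusted for the number of genes tested. They are therefore no limit of detection, and some changes outside them could also have gone uncalled. The highest Utrn value, 91.6 CPM, was that of CaAKG replicate 11. The Schwann cell markers of that library summed to 2380 CPM, where the median of the CaAKG group was 145 CPM. Their part in its Utrn value was not tested.

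The sexes differed little. At 20 months 0 of 8 genes passed (0.22% of all genes did, 0.137% higher and 0.0823% lower in males), with 0 under an unadjusted p of 0.05 and 0 by DESeq2 or limma-voom. At 28 months in batch 2, 0 passed the main test (1.3% of all genes did, 0.917% higher and 0.379% lower in males), and 1 had an unadjusted p under 0.05. That gene was Sgca, at 88.5 to 126 CPM in females (median 115, n = 7) and 110 to 145 CPM in males (median 135, n = 10), with overlap (log2 0.31 higher in males, SE 0.12, edgeR adjusted p = 0.2). It passed with limma-voom (log2 0.35, adjusted p = 0.0018) and in a fit of those 2 groups alone (0.29, edgeR adjusted p = 0.045), and likewise at 20 months in a fit of the 2 groups alone (0.23, edgeR adjusted p = 0.033).

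The labelled batches of 28-month control mice also differed in this complex. In females 5 of 8 genes were higher in batch 2 and 0 lower (6.75% of all genes were higher, 13.0% lower and 19.8% differed): Sgcd and Utrn by 0.91 on the log2 scale, Dmd by 0.75, Dag1 by 0.72 and Sspn by 0.37. In males 0 passed the main test (1.02% of all genes did, 0.818% higher and 0.198% lower), though 4 had an unadjusted p under 0.05, 1 passed by DESeq2 and 4 by limma-voom, and Dmd stood at 0.54 (SE 0.20, edgeR adjusted p = 0.15). Every age comparison above uses batch 1 alone. With the 9 skin or marrow libraries left out, 3 of which are batch 1 females, 2 of 8 genes passed in females, Utrn higher by 1.05 and Sgca at -0.61 (edgeR adjusted p = 0.0012), and Dmd stood at 0.51 (edgeR adjusted p = 0.16). With the length and GC offsets Dag1 (0.53) and Sgcd (0.69) still passed in females, whereas Dmd stood at 0.21 (edgeR adjusted p = 0.3), Utrn at 0.41 (edgeR adjusted p = 0.067) and Sspn at 0.21 (edgeR adjusted p = 0.27). In the same females 6 of 12 endothelial and 7 of 12 smooth muscle and pericyte markers were higher in batch 2, and 10 of 10 neutrophil and marrow and 9 of 10 keratinocyte markers lower. In batch 1 the keratinocyte transcripts lay mostly in female 8, and the neutrophil and marrow transcripts mostly in females 10 and 12. The part of all these markers' cells in the difference was not tested. In batch 2 the medians of Dmd, 180.1 CPM in females and 162 CPM in males, lay closer to those of 20 months, at 203 and 181 CPM, than to those of 28 months in batch 1, at 106 and 118 CPM. Ordered by median, the 11 groups ran from 48.7 CPM of Dmd in 12-month females to 203 CPM in 20-month females, and each group overlapped the next in the order.

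Among the 10 partners that passed the filter (Sgcz and Sntg1 did not), 2 rose and 2 fell from 6 to 20 months in each sex, where 18.2% of all genes rose and 17.8% fell in females and 22.6% rose and 22% fell in males. These shares are also the background of the gene lists described after the partners. All shares of all genes come from the main fit. The share called with the length and GC offsets is not given here, so counts with the offsets have no background beside them. Cav3, the muscle caveolin whose loss causes a dystrophy, was at 48.1 to 86.2 CPM (median 63.3) in 6-month females and 26.61 to 32.02 CPM (median 30.5) at 20 months, and in males at 53.1 to 142 CPM (median 70.5) and 24.4 to 46.3 CPM (median 31.9). The ages did not overlap. It fell by 1.12 on the log2 scale in females (SE 0.19, edgeR adjusted p = 2.2e-06) and by 1.29 in males (SE 0.16, edgeR adjusted p = 1.7e-10), the opposite direction from Dmd.

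Sntb2, the beta-2-syntrophin that is found with utrophin at the neuromuscular junction, rose from 6.05 to 8.13 CPM to 14.3 to 18.1 CPM in females (log2 1.22, SE 0.21, edgeR adjusted p = 1.4e-06) and from 5.78 to 9.52 CPM to 12.7 to 20.4 CPM in males (log2 1.33, SE 0.17, edgeR adjusted p = 7.3e-10). Sgce, epsilon-sarcoglycan, a relative of Sgca that is made in many tissues, rose by 0.58 in females (edgeR adjusted p = 0.042) and 0.85 in males (edgeR adjusted p = 0.00015). The female rise of Sgce was lost when any one of 7 of the 10 libraries was left out. The longest transcript of Cav3 has 1.16 kb and that of Sntb2 9.95 kb. With the length and GC offsets Cav3 still fell, at -0.50 in females and -0.74 in males, whereas Sntb2 (0.46) and Sgce (0.57) passed in males alone, and Sntb2 (0.32) and Sgce (0.31) missed the threshold in females.

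At 28 against 6 months in males Sgce was higher (log2 0.87, SE 0.22, edgeR adjusted p = 0.0034) and Cav3 lower (-0.74, edgeR adjusted p = 0.0035). In females Cav3 alone passed (-0.58, edgeR adjusted p = 0.026), and not without any one of 6 of the 10 libraries, with -0.39 at the least. Nos1, neuronal nitric oxide synthase, which the complex holds at the membrane, was at 17.6 to 41.2 CPM (median 32.6) in 20-month males and 6.61 to 18.3 CPM (median 9.81) in 28-month males. The ranges overlapped slightly. From 20 to 28 months it fell by 1.56 on the log2 scale (SE 0.38, edgeR adjusted p = 0.0025), and by 1.13 with the length and GC offsets (edgeR adjusted p = 0.054). In the same interval Sntb2 fell by 0.88 and Cav3 rose by 0.55 in males, and Sntb2 fell by 0.88 while Cav3 rose by 0.54 in females. With the offsets none of these 4 passed, with Sntb2 at -0.33 and -0.30 and Cav3 at 0.23 and 0.15 in males and females, and the female rise of Cav3 was also lost without 28-month female 9 or 13. Nos1 was lower in 12-month males, at 2.49 to 14.5 CPM (median 5.75) against 17.7 to 28.9 CPM (median 22.3) in 6-month males, with no overlap, and fell by 1.53 on the log2 scale with the offsets (edgeR adjusted p = 0.004). At 28 against 6 months in males it stood at -1.09 (edgeR adjusted p = 0.05), not called, and fell by 1.42 with the offsets (edgeR adjusted p = 0.0091). None of the 10 passed with CaAKG.

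**Figure D5:**
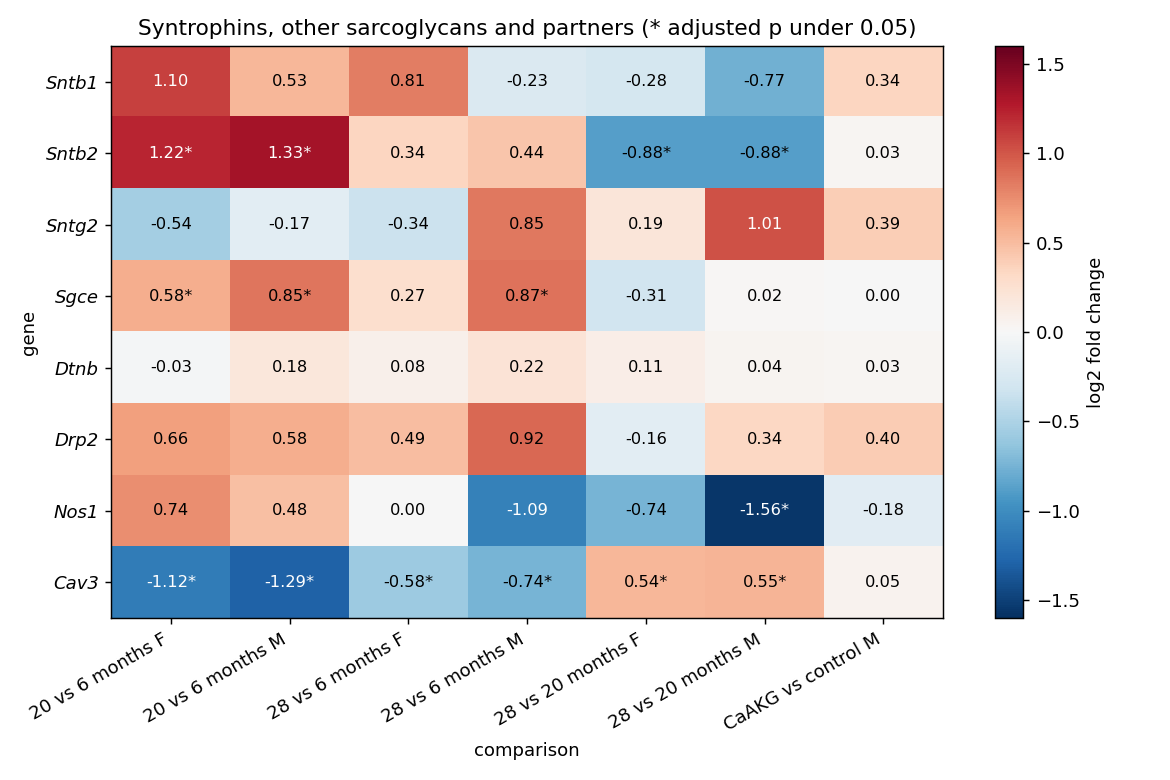
Log2 fold changes (colour and printed value) of 8 of the 10 partners that passed the filter (rows) in 7 comparisons (columns), with * for an edgeR adjusted p under 0.05. Sntb2 is higher and Cav3 lower at 20 than at 6 months in both sexes, and none of the 8 is marked for CaAKG.

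Outside the fibre, most genes of a list of laminins, other ligands of dystroglycan and further matrix proteins rose with it. Of 14 genes 12 rose in females and 13 in males from 6 to 20 months and 0 fell, with median log2 changes of 1.26 and 1.35. Lamc1, the laminin gamma-1 chain, rose by 1.41 in females and 1.33 in males, Lamb1, the beta-1 chain, by 1.58 and 1.94, Nid1, which joins laminin to collagen IV, by 1.31 and 1.65, and in males Lama4, a laminin chain of vessel walls, by 1.83. At 28 months 7 of the 14 were still above 6 months in males and 0 in females, and 10 in females and 9 in males had fallen from 20 months. With the length and GC offsets 10 of 14 rose in each sex from 6 to 20 months, and 2 fell in females and 1 in males. In males the offsets left 3 above 6 months at 28 months and 4 that fell from 20 months, and in females 0 and 9. Over all genes 6.76% rose from 6 to 28 months in males, and 12.6% in females and 8.78% in males fell from 20 to 28 months. Many of these genes are also made by vessel cells, whose markers moved with them as given above.

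Of 17 enzymes and partners that build the sugar chain by which dystroglycan binds laminin, more fell than rose from 6 to 20 months: 2 rose and 6 fell in females, 2 rose and 8 fell in males, with medians of -0.18 and -0.20. Rxylt1, a xylosyltransferase of that chain, fell by 0.95 and 0.86, Dpm1, part of the dolichol-phosphate-mannose synthase, by 0.94 and 0.68, and Pomgnt1, an acetylglucosamine transferase, by 0.54 and 0.65. Gmppb, which makes GDP-mannose, fell by 0.68 in males. At 28 months 1 rose and 5 fell in females, and 0 rose and 5 fell in males. Of all genes 9.91% rose and 9.04% fell from 6 to 28 months in females, and 6.76% rose and 9.38% fell in males. In males of that age Gmppb (-0.58), Pomk (-0.51) and Rxylt1 (-0.44) were lower than at 6 months. With the offsets 0 rose, and 4 fell in females and 5 in males at 20 months.

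Inside the fibre, 12 cytoskeletal linkers gave 6 rises and 1 fall in females and 4 rises and 2 falls in males. Ank2, an ankyrin that anchors dystrophin, rose by 1.16 and 1.296, and Plec, plectin, by 1.57 and 1.14, while Des, desmin, fell by 0.76 and Cryab, its chaperone, by 0.84 in males. With the offsets 2 rose and 0 fell in females, and 1 rose and 2 fell in males. The list of 11 integrins and adapters includes the other laminin link of the fibre. It gave 9 rises and 1 fall in females and 6 rises and 2 falls in males. Itga6 rose by 1.53 and 2.03 and Tln1, talin, by 1.13 and 0.86. With the offsets 5 rose and 0 fell in females and 4 rose and 2 fell in males. Bulk RNA does not tell fibre from vessel cells, and 11 of 12 endothelial markers rose in each sex. The part of vessel cells in these changes was not tested.

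Of 12 genes of membrane repair and caveolae, 4 rose and 0 fell in females and 4 rose and 1 fell in males. Ahnak rose by 1.28 and 1.25, and Cavin1 by 0.58 and 0.74. With the offsets 1 rose and 0 fell in females, and 3 rose and 2 fell in males. Of 10 genes of the neuromuscular junction, where utrophin is concentrated, 3 rose and 1 fell in females and 4 rose and 2 fell in males. Musk, the junction's receptor kinase, rose by 1.62 and 1.08, Lrp4, its agrin-binding partner, by 1.07 and 1.11, and Rapsn, which clusters the acetylcholine receptor, fell by 0.72 and 1.01. With the offsets 4 junction genes rose and 0 fell in females, so that the female fall of Rapsn was no longer called, and 5 rose and 1 fell in males. Of 8 genes of regeneration and embryonic fibres, 2 rose in females and 2 rose and 2 fell in males. Myh3, the embryonic myosin, rose by 1.75 and 1.64 at 20 months, and at 28 months stood 2.04 above 6 months in males on the log2 scale. With the offsets 2 of the 8 rose in females and 1 in males, and 0 fell. With CaAKG 0 genes of these 7 lists passed.

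Across the 77 replicates, log2(CPM + 1) of Dmd ran closest to that of Dag1 among the members (Pearson r = 0.93), followed by Sgcd (0.90) and Utrn (0.84). Dmd and Sgca were near 0 (r = 0.05). Among 7484 genes with a mean of at least 10 CPM, those most like Dmd included Pcm1 (0.97), Huwe1 (0.96) and Insr (0.96), with longest transcripts of 6.62 to 14.6 kb. Those most like Utrn were Gnaq (0.96), Sptbn1 (0.95), Tacc1 (0.94) and Rasal2 (0.94). Those most like Sgca were Saraf (0.79), Gpi1 (0.77), Asb8 (0.73) and Pdk2 (0.73), all with transcripts of 2.23 to 3.19 kb. These values describe libraries that share groups, depth and the trend on transcript length, and carry no test.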

How the data were processed

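RNA of 78 soleus libraries was sequenced as paired reads, per the labels' protocols. The authors deposited 1 table of RSEM expected counts, made with STAR 2.7.11b and RSEM 1.3.3 on mm10, per the submitters' processing notes; the annotation release, the strand setting and any filter are not stated in them. Its columns number 133, of which 55 fit no label and were left aside.

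Expected counts were rounded, and 2 libraries of 12-month females that share an animal tag were summed, giving 77 replicates; their counts differed more (chi-square per gene 263) than those of the median pair within a group (77.6), so whether they are 1 animal is unsure. edgeR 4.0.16 (R 4.3.3) tested 18218 genes (filterByExpr, minimum count 10, minimum total 15) by its quasi-likelihood test in 1 fit of 11 groups with TMM factors, with Benjamini-Hochberg adjustment over all genes for each of 15 comparisons and a threshold of 0.05. SE is the absolute log2 fold change over the root of F, and 95% intervals are 1.96 SE wide on each side. CPM use TMM factors, while marker sums use library totals. Positions and lengths come from GENCODE M21, which names 35298 of 36904 IDs. Length and GC offsets are smooth trends per library (5 degrees of freedom, prior count 2; 97.5% of tested genes). The code was tested on simulated data. DESeq2 1.42.0, limma 3.58.1 (voom), other filters and factors, a replicate block and left-out libraries were alternatives.

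All 8 members are named, with all partners and, of each other list, the up to 4 genes of smallest p in males at 20 or 28 against 6 months or with CaAKG. Likeness names 4 genes each for Dmd, Utrn and Sgca. Some genes that this rule names are not reported here. The members and lists were chosen with earlier results of these data known.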

Additional observations from a re-analysis of the deposited data

Results flagged for a closer look

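In 7 of the 80 pairs of gene and group with 4 to 10 replicates, 1 library lay far from the others of its group, where chance gives about 5%. Dmd was at 272.9 CPM in 20-month male 5, with the nearest male at 189.1 CPM. Dag1 was at 303.3 CPM in 28-month female 9 of batch 1 (nearest 170.8 CPM) and at 417.4 CPM in 28-month female 7 of batch 2 (nearest 291.2 CPM). Sspn was at 143.2 CPM in 20-month female 5, close above the next at 134.1 CPM. In 12-month female 5, a library with skin or marrow transcripts, Utrn was high at 36.27 CPM (nearest 18.99 CPM) and Sgca low at 72.09 CPM (nearest 110.0 CPM). For Sgcd, 12-month male 3 (its label; its sex-linked transcripts go against it) stood at 14.9 CPM, with the nearest male at 8.089 CPM.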

How the results depend on the processing

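Of 1560 values of the 8 genes under settings other than single left-out libraries, 1486 kept their call or the lack of one, 37 lost a call and 35 gained one. Another 2, uncalled in the main fit, changed sign and were called, both with the length and GC offsets: Dtna at -0.64 at 20 against 6 months in females and Sgca at 0.38 in males. Uncalled values that changed sign are counted among the 1486, such as Dtna at 28 against 20 months in females (-0.09, and 0.32 with the offsets). With those offsets the members called were 2 at 12 against 6 months in males (in place of 1), 1 at 28 against 6 months in females (2), 3 and 2 at 28 against 20 months in females and males (5 and 4), and 2 between batches in females (5). At 12 against 6 months in males, the count was 3 with the 5 sex-mismatched libraries left out, 2 with the 9 skin or marrow libraries left out, 4 with both sets left out, 3 with limma-voom and 2 with DESeq2. At 28 against 6 months in females it was 0 without the sex-mismatched libraries and 0 in a fit of the compared groups alone, and in males 5 with limma-voom. A fit of the compared groups alone called 1 gene between the sexes at 20 months and 1 at 28 months, where limma-voom also called 1. Between batches, females gave 2 without the skin or marrow libraries, and males gave 2 without both sets, 3 with the compared groups alone, 4 with limma-voom and 1 with DESeq2, in place of 0. Fewer replicates or groups entered the fits that leave libraries or groups out, and the cause of the other changes was not tested.

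Leaving out single libraries gave 1 to 3 called members at 12 against 6 months in males, 5 to 5 and 5 to 6 at 20 against 6 months in females and males, 0 to 2 and 2 to 2 at 28 against 6 months, 5 to 6 and 3 to 4 at 28 against 20 months, and 4 to 6 between batches in females. Elsewhere it gave 0.

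With the replicate block, 0 members were called at 28 against 6 months in females and 0 in males, in place of 2 and 2, where Dmd stood at 0.48 and 0.26 and Utrn at 0.45 and 0.84. The 28-month libraries of batch 1 have no replicate number in common with the 6-month ones. The block therefore leaves this comparison to run through other groups, and it cannot decide whether the rises hold. Libraries of different groups with the same number share only that number. Of 10 such pairs of CaAKG and control males, 3 deviated together with a correlation over 0.1, and 2 of 10 controls correlated best with their own number.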
